A study of Mus musculus with 6 samples.

Results

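The nuclear genes for the subunits of the mitochondrial respiratory chain and ATP synthase were followed in mouse CT26 tumours after PEG-glutaminase treatment. Members were the protein-coding gene models of the deposited table whose symbol begins with Nduf and a subunit letter and digit, is Sdha, Sdhb, Sdhc or Sdhd, or begins with Uqcr, Cox and a digit from 4 to 8, or Atp5. This gave 85 members of 40303 gene models. By prefix, 38 belonged to complex I (Nduf), 4 to complex II (Sdh), 8 to complex III (Uqcr), 18 to complex IV (Cox) and 17 to complex V (Atp5), which is ATP synthase. The prefixes are approximate, since Ndufa4 carries the complex I prefix although its protein is now assigned to complex IV, and Ndufab1 is not matched by the pattern.

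CT26 is a colon carcinoma line from BALB/c mice, and the tumours were grown subcutaneously in wild-type BALB/c hosts, so the stroma and infiltrate are of the host. PEG-glutaminase, a glutamine-degrading enzyme with an attached polymer, was given into the peritoneal cavity at 50 IU/kg to 3 mice. The other 3 mice received vehicle, which was PBS with 10% glycerol. Dosing began at palpable tumours and was repeated after 3 days for 2 doses in all, and each mouse gave 1 tumour and 1 library of poly-A RNA. The labels give no age for the mice.

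Complexes I to IV pass electrons from NADH and succinate to oxygen. Complexes I, III and IV, but not II, pump protons across the inner mitochondrial membrane, and ATP synthase uses the returning protons to make ATP. Glutamine can enter this system after its conversion to glutamate and alpha-ketoglutarate, which is oxidised in the tricarboxylic acid cycle. Most subunits are encoded in the nucleus and imported, while a small set is encoded by mitochondrial DNA, and the transcription factors NRF1, GABP (an ETS factor) and YY1 are known regulators of many of the nuclear genes.

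Vehicle libraries held 17380129 to 18051480 reads and PEG-glutaminase libraries 16455052 to 16791267. Of these the members together took 1.00% ± 0.0670 without and 0.951% ± 0.0439 with PEG-glutaminase (SD, n = 3 per group), with libraries from 0.924% to 1.04% and from 0.909% to 0.996%. Vehicle 1 stood apart in skin RNA: the 12 keratinocyte markers summed to 8998 normalized counts there, to 127 and 310 in the other vehicle libraries and to between 96.0 and 118 in PEG-glutaminase tumours, with Dsc3, Dsg3, Krt77 and Lor at 0 in all 3 of the latter. PEG-glutaminase 2 had the highest sum of 15 muscle markers (2179, against 217 and 319 in its group and 412 to 1505 in vehicle tumours) and the lowest sum of 13 T and NK cell markers (692, against 2015 and 3932 in its group and 4681 to 5501 in vehicle tumours). The T and NK cell sums thus separated the groups, as did those of 8 erythroid markers, at 481 to 595 in vehicle and 960 to 1316 in PEG-glutaminase tumours, where limma called the beta globin Hbb-bs higher (adjusted p = 0.0371). Mrc1, the mannose receptor of macrophages, stood at 2283 ± 322 in vehicle and 6239 ± 2358 in PEG-glutaminase tumours (SD, n = 3 per group), with adjusted p-values of 0.124 in limma and 0.00259 in DESeq2. The 12 macrophage and monocyte markers together overlapped, at 43575 to 59301 and 51051 to 57472. The part of the RNA of these other cells in the members' values was not tested. The 8 colon epithelial markers summed to 4696 to 5438 in vehicle and 2592 to 3934 in PEG-glutaminase tumours. Krt20 alone made up most of these sums, at 4317 to 5226 and 2349 to 3652 normalized counts. Of the 6 markers tested, 4 were lower and 2 higher in PEG-glutaminase tumours. Cdx2 was at 3.86 to 17.7 in vehicle and 13.4 to 29.7 in PEG-glutaminase tumours, Krt8 at 6.87 to 9.66 and 9.90 to 27.8. Krt19 was at 0.981 to 4.83 and 8.91 to 19.5. Vil1 lay between 0 and 4.12 and Epcam between 2.07 and 58.0. Of the mitochondrially encoded subunits only mt-Nd6 and mt-Cytb were found, both listed at 0, and the rest were not analysed here.

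After the filter of a mean of at least 10 normalized counts, 79 members were tested among 13557 genes. In the PEG-glutaminase tumours 67 of the 79 had a log2 difference below 0, where 50% of all tested genes did, and the median difference was -0.14. Under 1000 bases, 86.8% of members and 71.1% of all tested genes were below 0. The shift was small and no single member passed: limma called 0 members at an adjusted p under 0.05, and 0.0369% of all genes were called. At an unadjusted p under 0.05 limma found 19 members lower, against a background of 9.51% of all genes, and 1 higher (Cox6a2), against 8.92%. In 22 members (27.8%) every PEG-glutaminase library lay below every vehicle library (12.7% of all genes), and in Ndufs1 and Cox6a2 every one lay above (13.1% of all genes). Under 1000 bases the share that lay below was 34.0% of members and 22.4% of all tested genes. With 3 libraries a group an exact permutation test could not give a p below 0.1.

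Count tests called a few members, all lower. DESeq2 on the recovered reads called Cox5b (adjusted p = 0.00356), Ndufa1 (0.0118) and Ndufa3 (0.0375), where its calls in this direction made up 2.17% of genes. edgeR called 0 members and 0.0369% of all genes. The authors' deposited table has adjusted p-values under 0.05 for 5 members, again all lower, where 1.96% of its genes were: Atp5l (log2 fold change -0.31, adjusted p = 0.0166), Cox6c (-0.27, 0.0246), Cox5b (-0.50, 0.0416), and Cox7c (-0.32) and Atp5md (-0.25), both at 0.0471. Cox5b was the 1 member called both by DESeq2 here and in the authors' deposited table. The estimates of the 2 sources also differed. For Cox5b, Ndufa1 and Ndufa3 the deposited log2 fold changes were -0.50, -0.41 and -0.30, against -0.66, -0.57 and -0.45 in DESeq2 here. Ndufa4l2 went the other way, at -0.67 deposited and -0.29 here. The source of these differences was not tested.

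**Figure D1:**
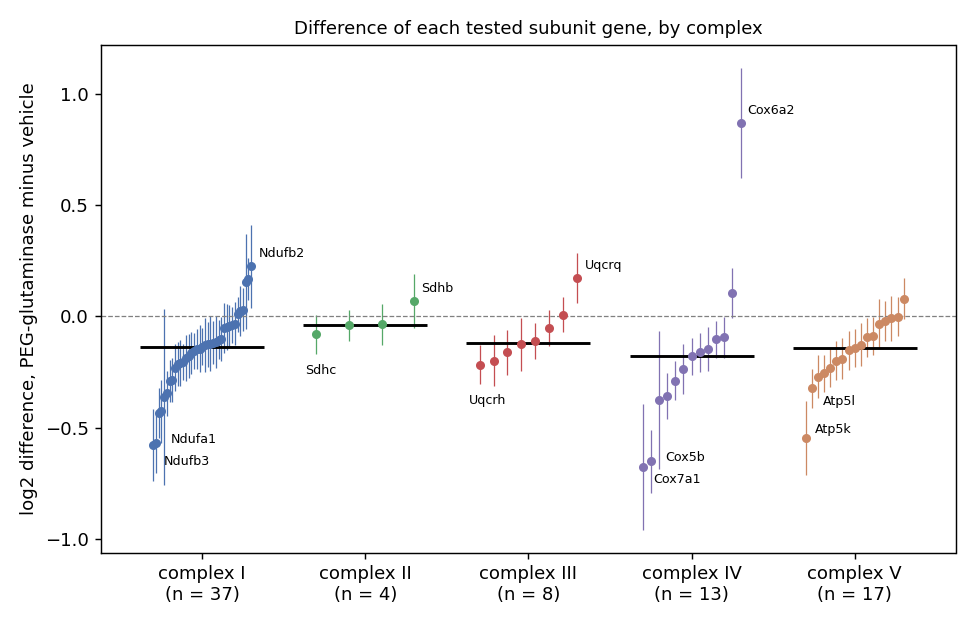
Log2 difference (PEG-glutaminase minus vehicle) of each of the 79 tested members, grouped by complex; points are limma estimates, bars are standard errors and black lines are medians. The medians of complexes I, III, IV and V lie between -0.18 and -0.12 and that of complex II at -0.04, with Cox6a2 alone far above 0 at 0.87.

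Complex IV stood at -0.18 (11 of 13 tested members lower), complex V at -0.14 (16 of 17), complex I at -0.14 (31 of 37), complex III at -0.12 (6 of 8) and complex II at -0.04 (3 of 4). Members lower at an unadjusted limma p under 0.05 numbered 8 in complex I (21.6% of its tested members) and 0 in complex II. Complex III had 1 (12.5%), complex IV 4 (30.8%) and complex V 6 (35.3%). The share was 9.51% over all tested genes and 19.1% over all tested genes under 1000 bases. Complex II also had the longest transcripts, with a median of 2065.5 bases against 541 to 861 in the others, and with the length trend removed the 5 medians lay between -0.06 and 0.02. Members are not replicates of a treatment, so the differences between complexes were not tested. Fewer cells of a type and less RNA per cell cannot be told apart in these bulk samples.

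The libraries did not divide cleanly by treatment. Averaged over the 79 members, log2 deviations from each gene's mean were -0.07, 0.16 and 0.13 in vehicle 1, 2 and 3 and -0.03, -0.05 and -0.13 in PEG-glutaminase 1, 2 and 3. Vehicle 1 therefore lay below PEG-glutaminase 1 and 2, and the groups overlapped in this average. Vehicle 1 was the lowest vehicle library in 73 of 79 members. Vehicle 2 and 3 were both above all PEG-glutaminase libraries in 53 members, or 67.1%, against 19.2% of all tested genes. This count leaves out the vehicle library that was lowest in most members, so it favours the members over all genes. With vehicle 1 included the count was 22 members, or 27.8%, against 12.7% of all genes. Without vehicle 1 the median difference was -0.22 and 37 members (46.8%) had an unadjusted limma p under 0.05, against 17.5% of all genes in that fit, with 0 called. Without vehicle 2 the median was -0.09 with 12 such members (15.2%, against 12.4% of all genes), again with 0 called. Without PEG-glutaminase 2 it was -0.15 with 17 (21.5%, against 13.5%). Leaving out vehicle 1 and PEG-glutaminase 2 together gave 37 again, against 15.3% of all genes. Vehicle 1 is also the library with the skin RNA, and the part of skin RNA in the members' values was not tested.

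**Figure D2:**
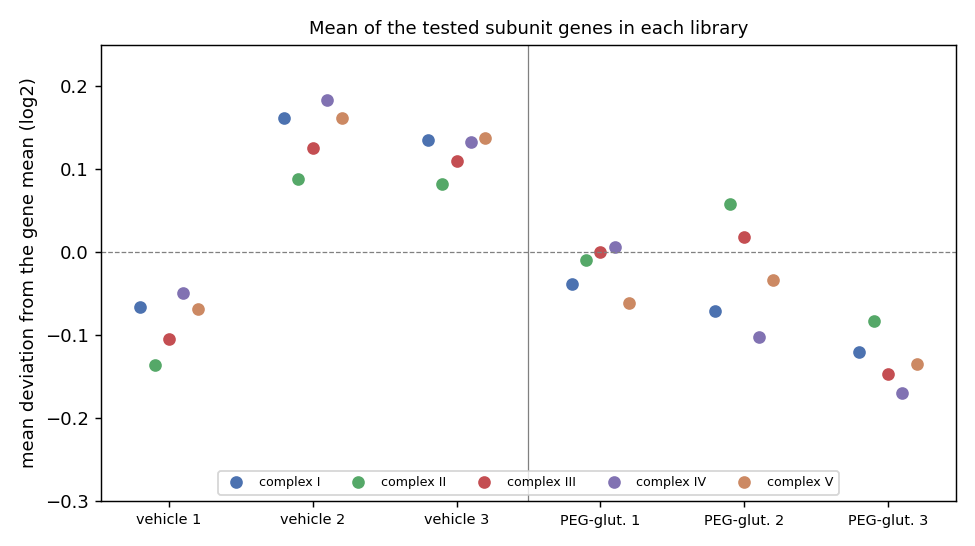
Mean log2 deviation from the gene mean over the tested members of each complex (colours), by library. All 5 complexes are below 0 in vehicle 1 and PEG-glutaminase 3 and above 0 in vehicle 2 and 3.

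Promoters were compared because the members are known to share regulators. RefSeq promoter windows ran from 250 bases before to 50 after the start on GRCm38.p6. They covered 27025 genes in all, were matched by Entrez gene identifier for 68 of the 85 members, and were searched on both strands. The NRF1 motif GCGCATGCG was in 7 member windows (Atp5g2, Atp5k, Atp5l, Ndufa8, Ndufa11, Uqcr11 and Uqcrc1), or 10.3%, against 1.95% of all windows. The ETS motif CCGGAAG bound by GABP was in 16, or 23.5%, against 9.93%, and the YY1 motif AAGATGGCG in 7, or 10.3%, against 1.64%. The CCAAT box (CCAAT, 42.6% against 41.1%), the Sp1 box (GGGCGG, 41.2% against 38.2%), the E box (CACGTG, 8.82% against 8.09%) and the TATA box (TATAAA, 11.8% against 15.7%) were in the windows of members about as often as in all windows. These are exact matches of the letters given, so variant forms of a motif were not counted, and none was tested as a binding site. A member without a match may thus still hold a variant, such as gcgcacgcg in Sdhd. Tested members with an exact match to the NRF1 letters had a median difference of -0.19 and those without it -0.13. The medians were -0.15 with and -0.13 without the ETS motif, and -0.09 with and -0.14 without the YY1 motif.

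The last 150 bases before the start are shown for Cox5b and Ndufa1, the members of smallest p, for Atp5k and Atp5g2, which carry the NRF1 motif on both strands in overlap, and for Uqcrh and Sdhd, which carry the ETS motif on the opposite strand (CTTCCGG). Capitals mark the exact letters searched, and variant forms stay in lower case. Cox5b and Ndufa1 have no exact match to the NRF1, ETS or YY1 letters in this stretch. On GRCm38.p6 the stretches are chr1:36691337-36691486 on the plus strand for Cox5b and, all on the minus strand, chrX:37191239-37191388 for Ndufa1, chr5:108434400-108434549 for Atp5k, chr15:102671048-102671197 for Atp5g2, chr4:116075071-116075220 for Uqcrh and chr9:50603850-50603999 for Sdhd.
Cox5b promoter: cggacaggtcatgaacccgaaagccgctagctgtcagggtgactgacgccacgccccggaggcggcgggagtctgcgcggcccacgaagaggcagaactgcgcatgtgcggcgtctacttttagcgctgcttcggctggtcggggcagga
Ndufa1 promoter: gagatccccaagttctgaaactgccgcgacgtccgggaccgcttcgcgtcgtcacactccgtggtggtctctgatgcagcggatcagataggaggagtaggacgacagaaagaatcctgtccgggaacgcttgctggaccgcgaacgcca
Atp5k promoter: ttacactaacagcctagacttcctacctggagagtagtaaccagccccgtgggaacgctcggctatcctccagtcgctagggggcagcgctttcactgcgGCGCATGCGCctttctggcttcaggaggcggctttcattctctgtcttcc
Atp5g2 promoter: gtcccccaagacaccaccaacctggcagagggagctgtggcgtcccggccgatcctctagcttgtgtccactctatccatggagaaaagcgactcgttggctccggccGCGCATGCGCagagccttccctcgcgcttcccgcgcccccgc
Uqcrh promoter: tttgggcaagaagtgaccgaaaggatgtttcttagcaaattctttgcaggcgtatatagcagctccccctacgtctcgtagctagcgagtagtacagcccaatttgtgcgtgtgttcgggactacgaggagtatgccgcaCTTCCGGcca
Sdhd promoter: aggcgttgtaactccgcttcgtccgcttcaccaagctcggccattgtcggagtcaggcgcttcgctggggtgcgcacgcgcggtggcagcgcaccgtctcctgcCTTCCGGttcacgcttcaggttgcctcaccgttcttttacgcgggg

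The NRF1 motif begins 50 bases before the start in Atp5k and 42 before it in Atp5g2, and the ETS motif begins 10 bases before it in Uqcrh and 46 in Sdhd. Atp5k stood at -0.55 and Atp5g2 at -0.19, and Uqcrh at -0.22 and Sdhd at -0.04, so members that share a motif differed in the size of their log2 difference.

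Complex I takes electrons from NADH. Its 7 core subunits, which carry the flavin and the iron-sulfur clusters, had a median difference of -0.03 with 4 of 7 lower, and the other 30 tested members one of -0.15 with 27 of 30 lower. The core subunits are the longer ones, with a median of 1623 bases against 718, and corrected for length the 2 medians were 0.10 and -0.03. Ndufb11b, a copy of an accessory subunit, was left out by the filter at 1.93 to 8.23 normalized counts.

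Ndufa1, a membrane-embedded accessory subunit encoded on the X chromosome, had 608, 719 and 805 normalized counts in vehicle 1, 2 and 3 and 541, 413 and 480.4 in PEG-glutaminase 1, 2 and 3. The groups did not overlap, although vehicle 1 and PEG-glutaminase 1 were close. Its difference was -0.57 ± 0.13 (SE; limma, adjusted p = 0.117). Ndufa3, another small membrane subunit, had 616, 727 and 819 against 547, 509 and 532 normalized counts, a difference of -0.44 ± 0.11 (limma, adjusted p = 0.134). Here the PEG-glutaminase libraries lay close together and the vehicle libraries were spread. Ndufb3, of the proton-pumping arm, was much scarcer at 126, 140.3 and 155 against 103, 88.1 and 89.5 normalized counts, a difference of -0.58 ± 0.16 (limma, adjusted p = 0.138).

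Further complex I members with an unadjusted limma p under 0.05, all lower, included Ndufb11 (-0.35), Ndufa2 (-0.29), Ndufv3 (-0.43) and Ndufa6 (-0.29), and each of these had separate groups. Ndufs1, the large iron-sulfur core subunit of the NADH-binding arm, had the opposite order to these, with 1678, 1724 and 1794 in vehicle and 1816, 2218 and 1824 in PEG-glutaminase tumours. Its difference was 0.17 ± 0.09 (limma, adjusted p = 0.351), and the highest vehicle value was near the lowest PEG-glutaminase value. Ndufv1, which binds NADH, stood at -0.04 ± 0.08 and Ndufv2, its iron-sulfur partner, at -0.10 ± 0.10, with overlapping groups in both.

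Ndufb2, an accessory subunit, had the highest difference of the complex (0.23 ± 0.19) with 105, 78.5 and 77.5 against 95.3, 98.0 and 110.1 normalized counts, so the groups overlapped through vehicle 1. Ndufa4 was at 884, 1081 and 1126 against 1023, 1585 and 917, where PEG-glutaminase 2 alone was high. Ndufa4l2, its hypoxia-inducible relative, was at 149, 239 and 250.2 against 248.6, 93.1 and 180.0, the widest spread of the complex with a difference of -0.36 ± 0.40, or 0.03 without PEG-glutaminase 2. In neither gene did the groups separate. The remaining accessory members lay between -0.23 (Ndufb4) and 0.01 (Ndufa10), and the core subunits Ndufs3, Ndufs7 and Ndufs8 between -0.03 and 0.03. Among these Ndufb4 and Ndufb7 were lower in every PEG-glutaminase library than in any vehicle library, and the rest overlapped.

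Complex II, succinate dehydrogenase, belongs to both the tricarboxylic acid cycle and the respiratory chain and has no mitochondrially encoded subunit. Its 4 genes were close to level between groups. Sdha, the flavoprotein that oxidises succinate, had 3963, 4081 and 4083 normalized counts in vehicle and 3969, 3904 and 3913 in PEG-glutaminase tumours, a difference of -0.04 ± 0.07. The spread of Sdha within groups was narrow (SD 68.6 and 35.0), and the groups overlapped only through vehicle 1. Sdhb, the iron-sulfur subunit, stood at 0.07 ± 0.12 and its sign turned without vehicle 1 (-0.05) or PEG-glutaminase 2 (-0.02). The membrane anchors Sdhc and Sdhd stood at -0.08 ± 0.09 and -0.04 ± 0.09, and Sdhd turned without vehicle 2 (0.03) or PEG-glutaminase 3 (0.01). The limma adjusted p of these 4 ran from 0.628 to 0.861.

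Complex III passes electrons from ubiquinol to cytochrome c. Uqcrh, the acidic hinge subunit that helps cytochrome c dock, had 1777, 2140.5 and 1875 normalized counts in vehicle and 1656, 1735 and 1580.2 in PEG-glutaminase tumours. The groups did not overlap, and the difference was -0.22 ± 0.09 (limma, adjusted p = 0.236). It was the 1 member of the complex with an unadjusted p under 0.05. The small subunits Uqcr11 and Uqcrb stood at -0.20 ± 0.12 and -0.16 ± 0.10 with overlapping groups. Uqcrq, a small subunit beside cytochrome b, was at 1942, 2361 and 2520.2 against 2797, 2577 and 2288 normalized counts, a difference of 0.17 ± 0.11 that shrank to 0.06 without vehicle 1. Uqcrc1, the core protein with the most counts, stood at 0.01 ± 0.08, and its sign turned without vehicle 1 (-0.04) or PEG-glutaminase 2 (-0.02) and under upper quartile scaling (-0.0008). The Rieske iron-sulfur protein Uqcrfs1 stood at -0.11 ± 0.08, the small subunit Uqcr10 at -0.13 ± 0.12 and the other core protein, Uqcrc2, at -0.05 ± 0.08, all with overlapping groups.

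Complex IV, cytochrome c oxidase, reduces oxygen, and its nuclear subunits surround a mitochondrially encoded core. Cox5b, a zinc-binding subunit on the matrix side, had 725, 869 and 1053 normalized counts in vehicle 1, 2 and 3 and 637, 534 and 502 in PEG-glutaminase 1, 2 and 3. All PEG-glutaminase libraries lay below all vehicle libraries, at 0.636 of the vehicle level on the fitted scale. The difference was -0.65 ± 0.14 (SE; limma, adjusted p = 0.114) and ran from -0.79 to -0.52 when single libraries were left out. Cox7c had 1772, 2163 and 2254 against 1686, 1647 and 1477 normalized counts, a difference of -0.36 ± 0.10 (limma, adjusted p = 0.148). In this small membrane subunit, too, vehicle 1 lay near the PEG-glutaminase libraries. Cox6c, also a small membrane subunit, had 2193, 2534 and 2553 against 1989.7, 2095 and 1860.0, a difference of -0.29 ± 0.09 (limma, adjusted p = 0.154). Cox5a, the partner of Cox5b in the complex, stood at 0.10 ± 0.11 with overlapping groups, and at -0.04 without vehicle 1 and PEG-glutaminase 2 together.

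**Figure D3:**
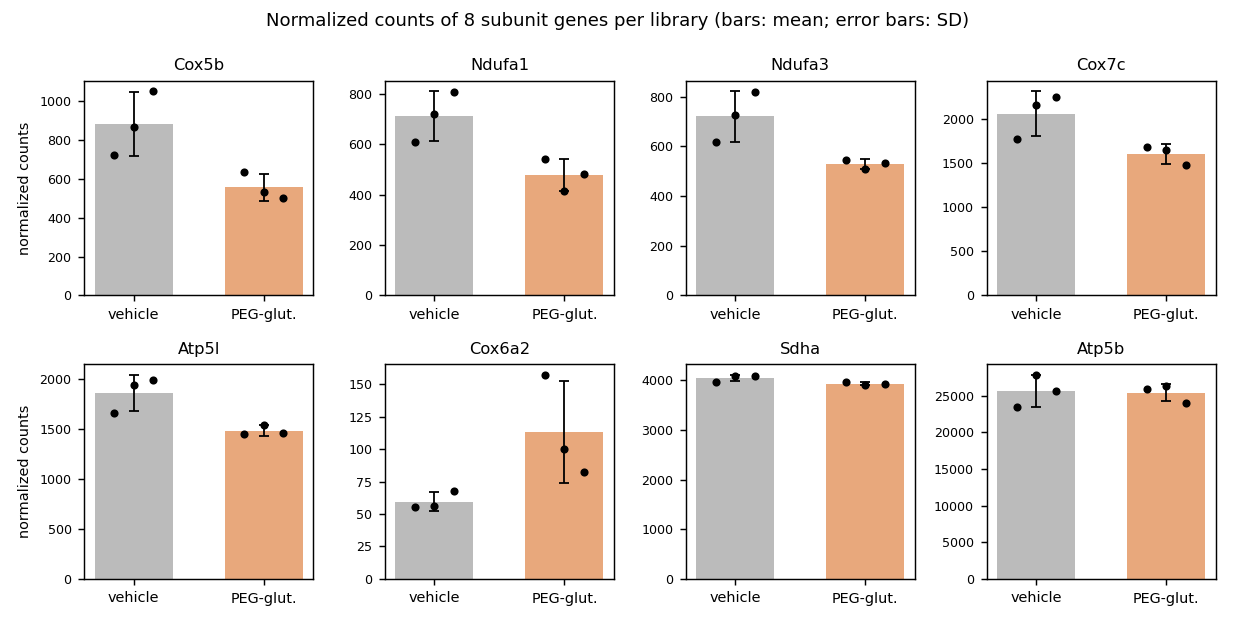
Normalized counts of 8 members in each library (points), with group means (bars) and SD (error bars); every axis starts at 0. Cox5b, Ndufa1, Ndufa3, Cox7c and Atp5l are lower in all 3 PEG-glutaminase libraries, Cox6a2 is higher, and Sdha and Atp5b overlap between groups.

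Several complex IV subunits exist as tissue isoforms. Cox6a2, the heart and skeletal muscle form of subunit 6a, had 55.1, 55.9 and 67.7 normalized counts in vehicle and 157, 99.99 and 82.3 in PEG-glutaminase tumours. The groups did not overlap, and PEG-glutaminase 1 was the highest. The difference was 0.87 ± 0.25 (limma, adjusted p = 0.144), and 0.61 without PEG-glutaminase 1. The muscle marker sums were 801, 412 and 1505 in vehicle and 319, 2179 and 217 in PEG-glutaminase 1, 2 and 3, and their part in the Cox6a2 difference was not tested. Cox6a1, the common form, was not analysed here.

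Cox7a1, the muscle form of subunit 7a, went the other way at 34.8, 35.3 and 26.5 against 21.8, 19.8 and 17.5 normalized counts. Its difference was -0.68 ± 0.28 (limma, adjusted p = 0.240), from few reads. Cox7a1 made up 1.09% ± 0.155 of the summed normalized counts per kilobase of Cox7a1, Cox7a2 and Cox7a2l in vehicle and 0.768% ± 0.0867 in PEG-glutaminase tumours (SD, n = 3 per group). The common form Cox7a2 stood at -0.10 ± 0.08 and the related Cox7a2l at -0.24 ± 0.11, the latter with separate groups.

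Cox4i1, the common form of the largest nuclear subunit, held 99.6% ± 0.0358 of the summed level per kilobase of the pair in vehicle and 99.6% ± 0.0822 in PEG-glutaminase tumours, and Cox4i2, the hypoxia-inducible lung form, the small rest at 15.8 to 32.4 normalized counts. Their differences were -0.15 ± 0.10 and -0.38 ± 0.31. Cox8a stood at -0.18 ± 0.08, Cox7b at -0.16 ± 0.09 and Cox6b1 at -0.09 ± 0.09. None of these groups separated. The restricted forms were near the limit of detection: Cox6b2, of testis, was at 2.06 to 8.91 normalized counts, Cox8b, of muscle, at 0.966 and 1.96 in vehicle 1 and 3 and 0 elsewhere, and Cox7b2, Cox8c and Cox5b-ps had 0 in all 6 libraries.

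ATP synthase has a catalytic head in the matrix and a membrane part with the rotating ring. Atp5b, the catalytic beta subunit and the member with the most counts, had 23440.4, 27900.5 and 25676 normalized counts in vehicle and 25984, 26312 and 24088 in PEG-glutaminase tumours. Its difference was -0.01 ± 0.10, and its sign turned without vehicle 2 (0.05) or PEG-glutaminase 3 (0.03). Atp5a1, the alpha subunit, stood at -0.02 ± 0.09 and Atp5d, the delta subunit, at -0.001 ± 0.09, which TMM scaling turned to 0.003. The other head subunits were lower with separate groups, Atp5e (epsilon) at -0.23 ± 0.09 and Atp5c1 (gamma, the shaft) at -0.20 ± 0.09, at unadjusted limma p-values of 0.0255 and 0.0463. The 5 head subunits had a median of -0.02 and the other 12 members one of -0.15, a division made after the values were seen. Their median lengths were 1166 and 610.5 bases, and corrected for length the medians were -0.01 and 0.02.

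The largest differences of complex V were in the small membrane subunits at the dimer interface. Atp5l (subunit g) had 1654, 1936 and 1989.5 normalized counts in vehicle and 1448, 1541 and 1454 in PEG-glutaminase tumours, a difference of -0.32 ± 0.09 (limma, adjusted p = 0.136). Atp5k (subunit e), its binding partner, had 352, 418 and 549 against 339, 271 and 281, a difference of -0.55 ± 0.16 (limma, adjusted p = 0.155). In both, the groups were separate, but in Atp5k vehicle 1 and PEG-glutaminase 1 nearly met. Without vehicle 3 the difference of Atp5k was -0.37. Atp5md, the DAPIT subunit, had 1107, 1279 and 1203 against 985, 1041 and 972 normalized counts, a difference of -0.26 ± 0.08 (limma, adjusted p = 0.174). Atp5mpl, a further small membrane subunit, stood at -0.27 ± 0.10 with separate groups. The stalk subunits Atp5h (-0.15), Atp5j (-0.09), Atp5o (-0.09) and Atp5pb (-0.03) and the membrane subunit Atp5j2 (-0.14) overlapped between groups. Atp5o is listed under a pair of Ensembl identifiers with 1 set of values and was counted once.

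Subunit c of the ring is encoded by 3 genes that make the same mature protein. Atp5g2 supplied 59.8% ± 1.18 of their summed normalized counts per kilobase in vehicle tumours, Atp5g3 27.5% ± 0.511 and Atp5g1 12.6% ± 0.687 (SD, n = 3 per group). In PEG-glutaminase tumours the shares were 57.6% ± 3.15, 27.7% ± 2.47 and 14.6% ± 0.701. The share of Atp5g1 was 12.5%, 12.0% and 13.4% in vehicle and 14.6%, 15.4% and 14.0% in PEG-glutaminase tumours, so its groups did not overlap, while those of the other two did. The differences of the genes themselves were 0.08 ± 0.09 for Atp5g1, -0.19 ± 0.09 for Atp5g2 and -0.13 ± 0.10 for Atp5g3, and Atp5g1 was at -0.001 without vehicle 1.

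Per kilobase of the principal transcript the levels in vehicle tumours ranged widely. Atp5g2 (14734 normalized counts per kilobase) and Atp5b (13399) were highest, followed by Cox4i1 (8776), Cox8a (7157) and Atp5g3 (6775). The lowest tested members were the isoforms Cox4i2 (36.7), Cox7a1 (81.9) and Cox6a2 (87.6). The median level per kilobase was 1316 in complex I, 1505 in complex II, 1989 in complex III, 2384 in complex IV and 3111 in complex V.

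Transcript length moved with the differences. The members' median length was 745 bases, against 2748 over all genes tested. The 53 members under 1000 bases had a median difference of -0.16, and the 26 of 1000 bases or more one of -0.05. All 1275 tested genes under 1000 bases had a median of -0.15 and the 12197 longer ones 0.01, so short transcripts stood lower throughout the table. Under 500 bases the medians were -0.23 in 11 members and -0.23 in 278 genes, from 500 to 1000 bases -0.15 in 42 members and -0.14 in 997 genes, and from 1000 to 2000 bases -0.10 in 21 members and -0.06 in 3092 genes. At like length the members' medians therefore lay within 0.04 of those of all genes. The match did not extend to each library. Mean log2 deviations of members under 1000 bases were -0.06, 0.16 and 0.16 in vehicle 1, 2 and 3. In PEG-glutaminase 1, 2 and 3 they were -0.03, -0.08 and -0.15. All genes under 1000 bases stood at 0.04, 0.13 and 0.10 in vehicle and -0.06, -0.12 and -0.09 in PEG-glutaminase tumours. Spearman's rho between difference and length was 0.42 over the 79 members and 0.28 over 13472 genes, both across genes of the same 6 libraries, as a description.

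**Figure D4:**
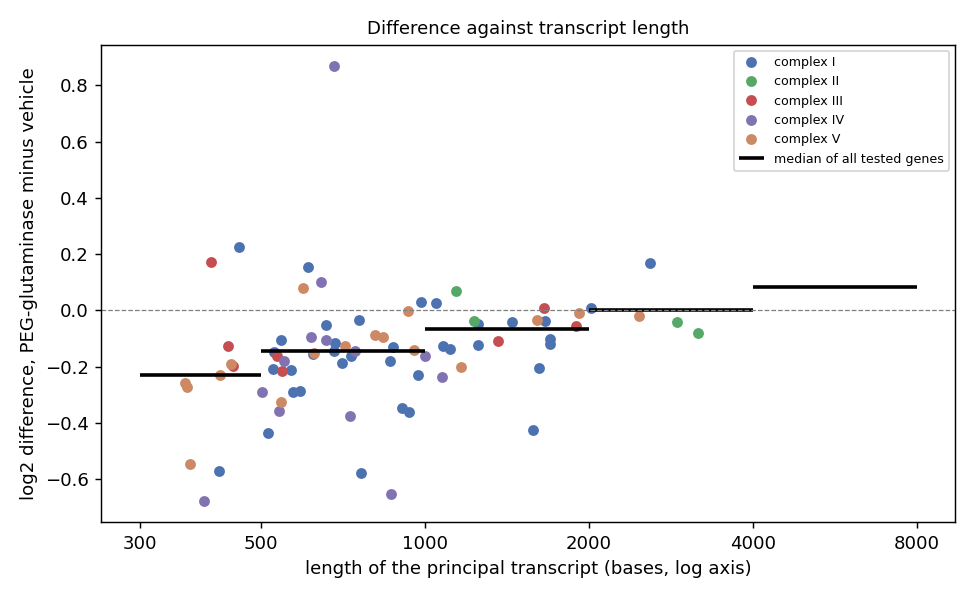
Log2 difference of each tested member against the length of its principal transcript (log axis), coloured by complex; black lines are medians of all tested genes in the same length range. The short members lie around the lines of -0.23 and -0.14 and the longer ones nearer 0, while Cox6a2 lies far above its line.

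The length trend of all genes was subtracted in each library, with the length of the longest transcript as planned and, as a choice made after the data were seen, with that of the principal transcript. A principal length was found for all 85 members and for 91.2% of tested genes. For other genes with a length, that of the longest transcript stood in. The longest transcript is far longer than the principal one in some short members, such as Atp5l (6310 against 544 bases), Cox6c (3038 against 503) and Atp5md (2733 against 362). With the principal transcript the median over members was -0.01, and 42 of 79 were below 0, against 50.7% of all genes. By complex these corrected medians were -0.02 for I, 0.00 for II, 0.02 for III, -0.06 for IV and 0.01 for V. With the longest transcript the median over members was -0.02. The medians thus lay near 0 under both.

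The members at an unadjusted limma p under 0.05 depended on which length was used. With the longest transcript 15 were lower and 2 higher (21.5% of the members together), where 18.3% of all genes passed in either direction. With the principal transcript 7 were lower (9.4% of all genes) and 4 higher (8.86% of all genes). Together these 11 were 13.9% of the members tested, against 18.3% of all genes. With either length, 0 were called after adjustment. The 7 included Cox5b (-0.53), Ndufa1 (-0.35), Ndufa3 (-0.24), Ndufb3 (-0.44), Ndufb11 (-0.23) and Ndufv3 (-0.37), all among the 15 as well. Of the 7, 6 belong to complex I, which has 37 of the 79 tested members. Higher with both were Cox6a2 (1.02 with the principal transcript) and Uqcrq (0.39), and with the principal transcript also Cox5a (0.26) and Atp5g1 (0.25). Atp5l stood at -0.41 with the longest and -0.14 with the principal transcript, against -0.32 uncorrected, Cox6c at -0.28 and -0.10, and Atp5md at -0.23 and -0.02. Atp5k (-0.35 and -0.32) and Cox7c (-0.19 and -0.17) were nearer to 0 than uncorrected in both. A correction by length also removes any difference of the treatment that runs with length, and these cannot be told apart here.

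**Figure D5:**
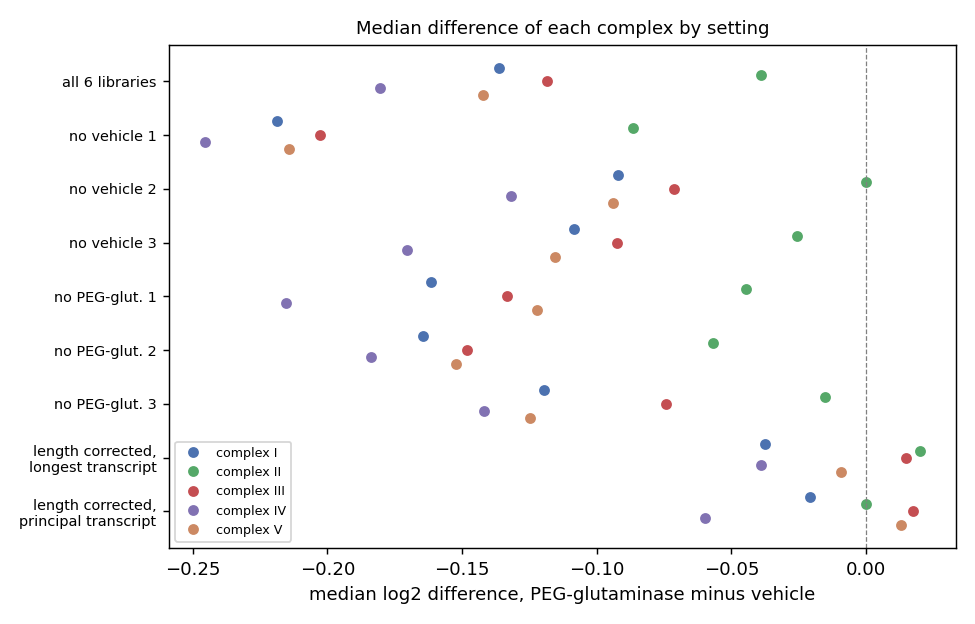
Median log2 difference of the tested members of each complex (colours) with all libraries, with each library left out and with each of 2 length corrections. The medians of complexes I, III, IV and V are below 0 with any library left out, and after length correction all medians lie between -0.06 and 0.02.

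Genes that serve the complexes without being subunits were read from fixed lists. Assembly factors of complex I had a median difference of -0.04 (11 of 18 lower), those of complexes II and III one of -0.05 (8 of 10), those of complex IV 0.04 (10 of 23) and those of ATP synthase 0.00 (2 of 5). limma called 0 members of these lists, and the lists' median lengths, 1333 to 2562 bases, were above that of the subunits. Lrpprc, which stabilises mitochondrial messenger RNA, had 1688, 1496 and 1753 normalized counts in vehicle and 2083, 2177 and 2099 in PEG-glutaminase tumours (0.37 ± 0.08; limma, adjusted p = 0.114), and DESeq2 called it higher. Pet100, a complex IV assembly factor, went the opposite way at 106, 117 and 122 against 66.3, 76.2 and 78.2 (-0.64 ± 0.17; limma, adjusted p = 0.135). Of the ATP synthase list, Tmem70 stood at 0.32 ± 0.10 and Tmem242 at -0.36 ± 0.10, the latter called lower by DESeq2. Both factors take part in building the membrane part of the enzyme, and their differences had opposite signs with separate groups.

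Electron carriers and entry points had a median of 0.04 (8 of 18 lower), with the ubiquinone synthesis factor Coq8b at -0.37 ± 0.12 and the glycerol-3-phosphate and dihydroorotate dehydrogenases Gpd2 and Dhodh at 0.20 ± 0.08 and 0.22 ± 0.09. Carriers of ADP, ATP and phosphate had one of -0.03 (4 of 7 lower), with the ATP/ADP translocase Slc25a4 at -0.17 ± 0.09. Regulators of mitochondrial biogenesis had one of 0.04 (4 of 12 lower), from -0.64 to 0.43. The mitochondrial DNA polymerase Polg (0.28 ± 0.08), the coactivator Pprc1 (0.26 ± 0.09) and the mitochondrial RNA polymerase Polrmt (0.20 ± 0.08) had separate groups, higher in PEG-glutaminase tumours. Of the 12, 4 had separate groups in this direction (13.1% of all genes) and 1 in the other (12.7%). Their median length was 3705.5 bases, and corrected for length their median difference was 0.08. Over these 3 lists limma called 0 members.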

How the data were processed

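RNA was measured in 6 tumours, 3 per group, each from its own mouse. Tools listed in the submitters' processing notes are STAR, featureCounts, FastQC, DESeq and DESeq2, with no version. The genome build, the strand setting and the treatment of reads shared with near-identical copies, such as processed pseudogenes, are not stated in these sources.

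The deposited table gives, per the file headers, 1 column of expression signal per library, counts divided by a size factor (normalized counts), and the authors' own comparison as a log2 fold change with its standard error, a test score (Wald), raw p-values and adjusted p-values. Of 40396 rows, 93 repeat a gene model; each model was used once. Within a tolerance of 0.01, dividing by the value of 1 read (0.966 to 1.04) turned 100% of non-zero values into whole reads; for PEG-glutaminase 2 this rests on the values alone. On these reads edgeR 4.0.16 called 5 genes and DESeq2 1.42.0 called 487.

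The main test was limma 3.58.1 in R 4.3.3 on log2(value + 1), two-sided, with empirical Bayes moderation, a mean trend and robust estimation, for genes averaging 10 or more normalized counts. Differences are on that scale, which understates changes of low genes. Benjamini-Hochberg adjustment ran over 13557 genes with a threshold of 0.05. The test was tried on simulated counts. Transcript lengths are from the GENCODE M21 mouse annotation, which is of another assembly than the BALB/cJ gene models and served for lengths alone, and covered 99.4% of genes; the correction subtracted a lowess curve (span 0.3) on log2 length per library. Replicate numbers did not pair the libraries.

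Members and lists were chosen with earlier results of these data known. Values are named for the 3 members of smallest p, the extreme differences and the most counts in each complex, all of complex II, members called by any tool, the tissue isoforms and up to 3 genes of each list; others were chosen after their values were seen. A gene that the rule takes is not reported here.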

Additional observations from a re-analysis of the deposited data

How the results depend on the processing

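Of the alternatives run, pseudocounts of 0.5 and 5, a mean of at least 50 (which leaves out Cox7a1 and Cox4i2), edgeR, limma-voom and TMM scaling left the calls at 5 genes and 0 members. Among the members tested in them, Atp5d alone changed sign, with limma-voom (0.00325) and TMM scaling (0.00325). All genes called were 136 with no filter, 487 with DESeq2, 3 without vehicle 1 and PEG-glutaminase 2 together, 9 at an adjusted p of 0.1 and 0 to 25 with single libraries left out (0 without vehicle 1, vehicle 2 or PEG-glutaminase 1). Members called were 2 with no filter (Cox5b and Ndufa1) and 3 with DESeq2. Same-numbered libraries had correlations of -0.129, -0.214 and -0.220, so the numbers do not pair them. A replicate block on the number left limma with 1 gene called, 0 members called and 16 members at an unadjusted p under 0.05 (14.2% of all genes).

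Members at an unadjusted p under 0.05 numbered 17 with the longest-transcript and 11 with the principal-transcript length correction (18.3% of all genes in both), 37 without vehicle 1 and PEG-glutaminase 2 together (15.3%) and 12 to 37 with single libraries left out (12.4% to 18.5%). The medians with single libraries left out ran from -0.22 to -0.0919 over all complexes, -0.22 to -0.0919 for I, -0.086 to 0.0001 for II, -0.20 to -0.0712 for III, -0.25 to -0.13 for IV and -0.21 to -0.0939 for V. Without vehicle 1 and PEG-glutaminase 2 together, complexes II and III stood at -0.15 and -0.24. Corrected for length, by the longest and by the principal transcript, the medians were -0.0187 and -0.0105 over all, -0.0373 and -0.0209 for I, 0.0149 and 0.0174 for III, -0.039 and -0.0597 for IV and -0.00921 and 0.0131 for V. The longest transcript is far longer than the principal one in Atp5l, Cox6c and Atp5g1, and the principal-transcript version was added after seeing the data.

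Over all 79 members, 22 signs turned in the first of these corrections and 25 in the second, and 0 to 10 with single libraries left out. Of the members described, signs turned in both for Sdhd (0.0624 and 0.0429), Uqcrb (0.0309 and 0.0239), Uqcr10 (0.078 and 0.0862), Atp5b (0.0426 and 0.0233), Atp5d (0.0833 and 0.11), Atp5j (0.0452 and 0.0413), Atp5o (0.0376 and 0.0296), Cox8a (0.0161 and 0.00241), Cox7a2 (0.0718 and 0.0543), Cox6b1 (0.0894 and 0.0732), Atp5g3 (0.0153 and 0.0197), Ndufv1 (0.0271 and 0.00797) and Ndufs7 (0.0918 and 0.10). They turned in the first alone for Cox4i1 (0.0125) and Atp5a1 (0.00488), and in the second alone for Uqcr11 (0.0109), Atp5g2 (0.0207), Ndufb7 (0.0116), Atp5h (0.0131) and Atp5pb (0.0173).

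With single libraries left out, signs also turned for Sdhb (-0.0544 to 0.15), Sdhd (-0.12 to 0.0342), Uqcrc1 (-0.0447 to 0.0474), Atp5g1 (-0.00135 to 0.15), Atp5b (-0.0731 to 0.0525), Ndufa4l2 (-0.67 to 0.0291), Uqcrc2 (-0.0867 to 0.00406), Ndufv1 (-0.0937 to 0.00616), Atp5d (-0.0571 to 0.0767), Atp5pb (-0.13 to 0.0536), Ndufs7 (-0.13 to 0.026), Ndufs8 (-0.0347 to 0.0868), Atp5a1 (-0.0611 to 0.0254), Ndufa10 (-0.0261 to 0.0552), Ndufa4 (-0.0813 to 0.31) and Ndufs3 (-0.0475 to 0.15). Without vehicle 1 and PEG-glutaminase 2 together, Sdhb was -0.14, Uqcrc1 -0.075, Atp5g1 -0.0415, Cox5a -0.0414, Ndufs8 -0.0888, Ndufa10 -0.0495, Ndufa4 -0.19 and Ndufs3 -0.0631. Upper quartile scaling put Uqcrc1 at -0.000801. Beyond the construction of each alternative, the cause was not tested. Cox7a1 and Cox4i2, at 15.8 to 35.3 normalized counts a library, had standard errors of 0.28 and 0.31, and Ndufa4l2, at 93.1 to 250.2, one of 0.40; the part of depth in these was not tested.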
